A study of Mus musculus with 5 samples.

Results

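The TAM receptor genes Tyro3, Axl and Mertk, their ligand genes Gas6 and Pros1, and the engulfment genes Megf10, Gulp1, Itgav and Itgb5 were followed in RNA from mouse spinal cord. These 9 genes were picked by symbol, with Mertk as the starting point because it had passed the comparison of knockout (KO) with wild type (WT) in these same libraries, and the others as its relatives, ligands and partners. All 9 were found among the 55471 gene identifiers of the count table, and all 9 were among the 16052 genes with enough counts to be tested. Since the KO against WT comparison chose Mertk, the genotype differences of the 9 genes and the calls among them are given as descriptions, and no test of them counts as support.

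Spinal cord came from resting male C57BL/6J mice aged 3 months, with 3 WT libraries and 2 libraries of mice homozygous for the disrupted allele (Lhx1os -/-). Lhx1os makes a long non-coding RNA. In the KO mice Cas9 and 1 guide were used to place a short synthetic polyadenylation signal, followed by polymerase-destabilising MAZ elements, into the second exon, so that the gene remains in the genome and its transcription is meant to end early. Every cell of the animal carries the allele, and the number of founder lines is not given in the sources used here.

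The libraries held 15973063 to 19437533 counts. Counts of Lhx1os were 51 to 66 per WT library but 11 and 13 per KO library, which matches the labels. Neuronal, oligodendrocyte and astrocyte markers and the trunk Hox genes were present in every library, while of genes typical of the forebrain Emx1 was at 0 in all 5 and Neurod6 was present in all 5, at up to 4.11 CPM. The libraries differed in the stretch of cord they represent: Hoxd10, a gene of the lumbar cord, reached 7.31 CPM (the usual unit of counts scaled to library size, here corrected by edgeR's TMM factors) in KO replicate 2 and at most 0.431 CPM in the others. The labels do not say whether litters were shared or distinct, and p-values measure the spread between these libraries, which may be partly technical.

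TAM receptors are tyrosine kinases that let phagocytes recognise dying cells, shed membrane and synaptic debris. The secreted proteins Gas6 and protein S (from Pros1) bridge the receptors to phosphatidylserine, a lipid that healthy cells keep on the inner face of their membrane. Gas6 binds all TAM receptors, and protein S binds Tyro3 and Mertk. In the central nervous system Mertk and Axl are used by microglia, Mertk also by astrocytes, and Tyro3 is largely neuronal. Megf10 is an engulfment receptor of astrocytes, Gulp1 is an adaptor that binds the tail of such receptors, and Itgav with Itgb5 forms the integrin alpha-v beta-5, which cooperates with Mertk in uptake.

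The upstream sequences of the receptor genes are shown because these are the related genes whose levels are set against each other below. They are the 250 bases before the RefSeq start site in GRCm38.p6, written 5′ to 3′ on the gene's own strand, with capitals marking the GC box GGGCGG or its reverse complement. The Mertk window is chr2:128698665-128698914 on the plus strand, the Axl window chr7:25788734-25788983 on the minus strand and the Tyro3 window chr2:119799264-119799513 on the plus strand, inside the GENCODE span of the gene, which has earlier start sites.
Mertk: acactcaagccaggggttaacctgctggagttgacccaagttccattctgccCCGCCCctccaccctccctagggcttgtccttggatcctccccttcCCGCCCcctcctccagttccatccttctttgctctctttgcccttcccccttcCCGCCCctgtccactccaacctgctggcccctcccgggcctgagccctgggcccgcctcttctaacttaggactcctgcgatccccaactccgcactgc
Axl: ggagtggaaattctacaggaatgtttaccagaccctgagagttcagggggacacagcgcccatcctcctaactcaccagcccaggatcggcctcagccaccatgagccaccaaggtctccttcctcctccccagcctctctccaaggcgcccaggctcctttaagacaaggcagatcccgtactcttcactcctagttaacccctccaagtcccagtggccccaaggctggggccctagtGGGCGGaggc
Tyro3: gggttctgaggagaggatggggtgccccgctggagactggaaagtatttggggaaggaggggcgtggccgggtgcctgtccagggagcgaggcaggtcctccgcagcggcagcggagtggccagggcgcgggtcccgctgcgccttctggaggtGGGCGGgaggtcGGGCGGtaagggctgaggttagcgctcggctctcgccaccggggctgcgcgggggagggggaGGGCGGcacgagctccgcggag

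The upstream windows held 7 CpG dinucleotides for Mertk, 5 for Axl and 24 for Tyro3. Of the 27025 RefSeq promoters, 53.5% had fewer than Mertk, 44.5% fewer than Axl and 88.3% fewer than Tyro3. GC content was 63.6% for Mertk, 60.0% for Axl and 73.2% for Tyro3, against a median of 52.0% over all promoters. The GC box, the sequence read by Sp1 and Krüppel-like factors, occurred 3 times in the Mertk window, all in the reverse orientation, 3 times in that of Tyro3, all forward, and once in that of Axl. It is a common sequence, found on either strand in 32.9% of promoter windows of this length. A TATA box (TATAAA), the nuclear receptor half-site AGGTCA and the glucocorticoid receptor half-site AGAACA were searched on both strands and had 0 matches in the windows of the 8 members that the table holds. Over all promoters 13%, 13.8% and 16.2% of windows hold these motifs. The windows are short and say nothing of elements farther away.

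Mertk (ENSMUSG00000014361, chromosome 2, 128698956 to 128802894, plus strand, GRCm38) was the receptor gene with the lowest level in both genotypes and the one that differed most between them. Its raw counts were 535, 652 and 481 for WT replicates 1, 2 and 3, compared with 310 and 260 for KO replicates 1 and 2. Scaled to depth, the WT libraries stood at 31.8, 33.3 and 29.6 CPM and the KO libraries at 19.0 and 16.3 CPM. The KO libraries lay well below the WT libraries, and the gap between the groups was wider than the range within either. The WT mean was 31.6 ± 1.86 CPM (SD, n = 3) against a KO mean of 17.6 ± 1.95 CPM (SD, n = 2), which is 44.2% lower. On the log2 scale the difference was −0.84 (SE 0.10), and 0.754% of tested genes had a more negative value.

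In edgeR's quasi-likelihood test with Benjamini-Hochberg adjustment over all genes, 1 of the 9 genes passed at 0.05, and it was Mertk, for which the set was built. Over all 16052 genes 3 passed, or 0.0187%, and nothing is read from the members' count, since the same comparison chose Mertk. The targeted gene Lhx1os, at −2.13 (SE 0.28) on the log2 scale, did not pass in edgeR (adjusted p = 0.0589). A gene that did not pass may therefore still differ between the genotypes. DESeq2 also called Mertk and none of the other 8 genes, with 0.299% of its 14024 genes called, while limma-voom called 0 of the 9. The Mertk call was lost without WT replicate 2, KO replicate 1 or KO replicate 2, where its log2 fold change was −0.80, −0.96 and −0.73.

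**Figure D1:**
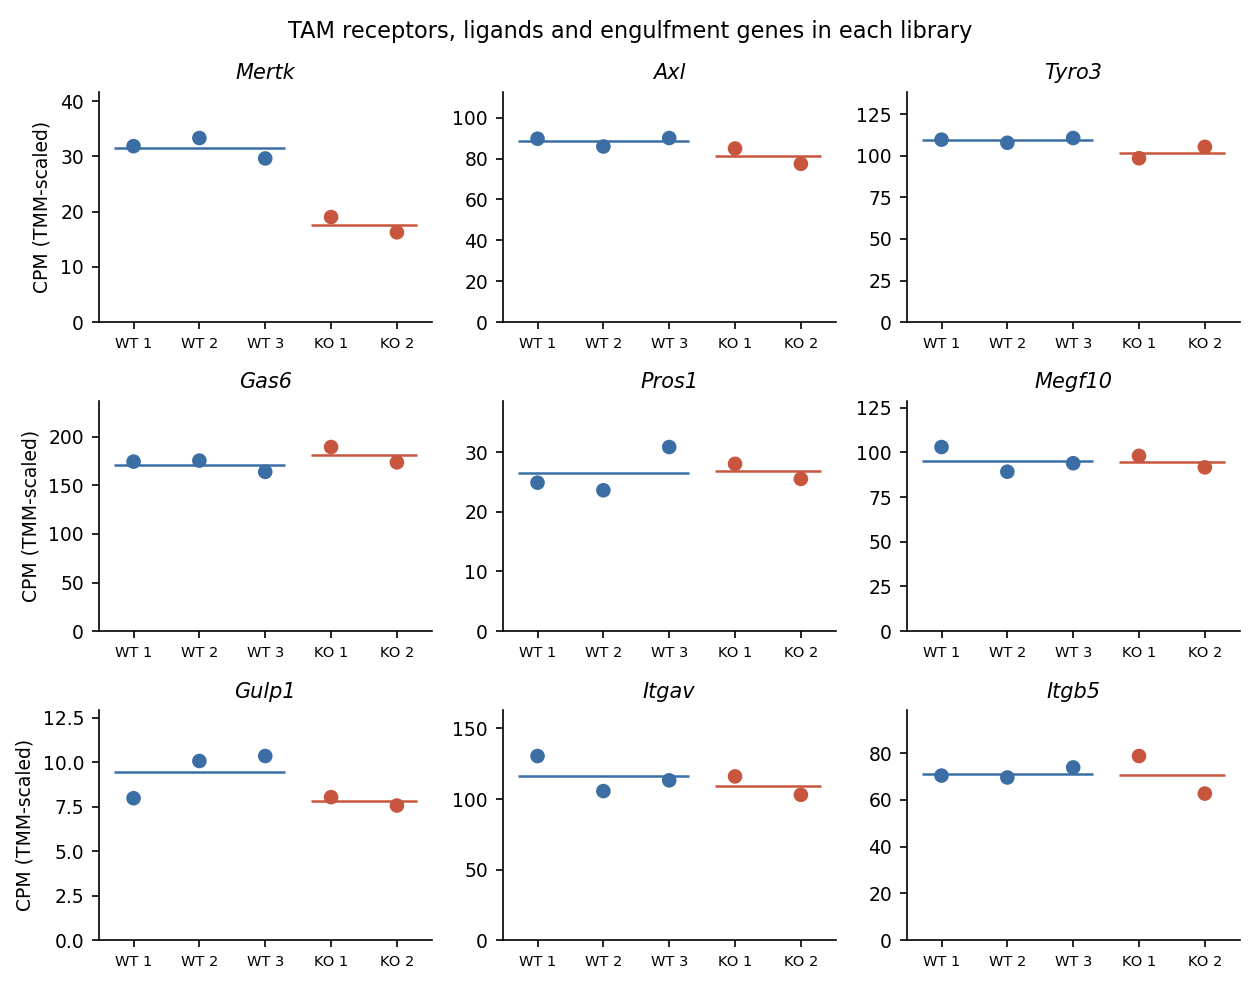
Level of each gene in each library in CPM scaled by TMM factors, with WT in blue, KO in red, points for libraries and lines for group means; each panel has its own axis starting at 0. Mertk stands at 29.6 to 33.3 CPM in WT and 16.3 to 19.0 CPM in KO, whereas Gas6, Pros1, Megf10, Gulp1, Itgav and Itgb5 overlap between the genotypes.

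Axl (ENSMUSG00000002602, chromosome 7, 25757273 to 25788705, minus strand), the TAM receptor that is raised by interferon and inflammation in many phagocytes, stood at 89.7, 85.9 and 90.0 CPM in WT and 84.9 and 77.4 CPM in KO. The groups did not overlap, but KO replicate 1 was close to the lowest WT library. Its log2 fold change was −0.13 (SE 0.07), a mean 8.34% lower in KO.

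Tyro3 (ENSMUSG00000027298, chromosome 2, 119797733 to 119818104, plus strand) stood at 109.7, 107.8 and 110.6 CPM in WT and 98.5 and 105.3 CPM in KO. Here too both KO libraries were below all WT libraries, and the SD in KO, 4.83 CPM, was larger than that in WT, 1.45 CPM. The log2 fold change was −0.10 (SE 0.06), a mean 6.81% lower in KO. Mertk, Axl and Tyro3 were thus the 3 of 9 genes whose KO libraries all lay below the WT libraries, an order that 12% of all tested genes showed. KO libraries above all WT libraries, shown by 12.9% of tested genes, occurred for 0 of the 9.

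Levels of different genes were compared as CPM per kilobase of annotated exon, a scale that corrects for length. In WT, Tyro3 at 17.6 ± 0.234 and Axl at 17.6 ± 0.456 CPM per kilobase (SD, n = 3) could not be ordered on this scale. Mertk was lower at 7.28 ± 0.429. Taking the longest transcript as the length instead gave WT means of 24.5 for Tyro3, 20.8 for Axl and 7.34 for Mertk. The likeness of Tyro3 and Axl, and the sums, shares and ratios below, thus depend on the use of all annotated exons. Added over the receptors, the level was 42.1 to 42.9 CPM per kilobase for WT, and 36.1 and 37.1 for KO. Mertk made up 17.1%, 18.2% and 16% of this sum for WT, and 11.8% and 10.4% of it for KO.

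The ratio of Mertk to Axl within a library, which does not depend on scaling between libraries, was 0.412, 0.450 and 0.382 per length in WT and 0.260 and 0.244 in KO. The ratio of Mertk to Tyro3 was 0.415, 0.442 and 0.383 in WT and 0.276 and 0.221 in KO. For both ratios the KO libraries lay below the WT libraries. The ratio of Axl to Tyro3, by contrast, was 0.981 to 1.01 in WT and 1.06 and 0.905 in KO, so that the KO libraries fell on either side of the WT range.

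**Figure D2:**
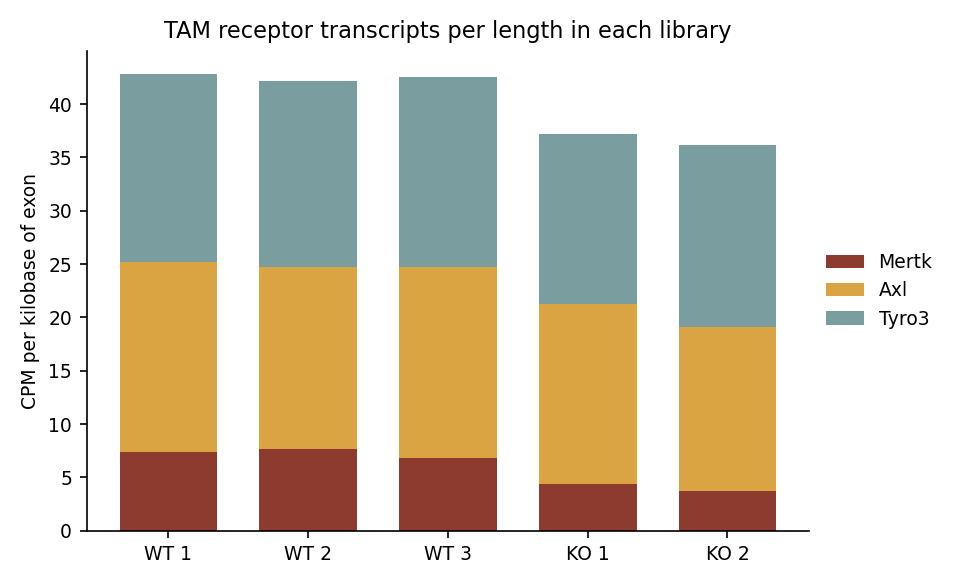
Stacked bars of the TAM receptor genes in each library, in CPM per kilobase of exon, with Mertk at the base, Axl in the middle and Tyro3 on top. The sum is 42.1 to 42.9 for WT, and 36.1 and 37.1 for KO; the Mertk segment is 6.83 to 7.68 in WT and 3.75 and 4.38 in KO.

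Gas6 (ENSMUSG00000031451, chromosome 8, 13465374 to 13494490, minus strand) was the most abundant of the 9 genes per length, at 67.1 ± 2.51 CPM per kilobase in WT. Its levels were 174.2, 175.3 and 163.7 CPM in WT and 189.2 and 173.5 CPM in KO. KO replicate 1 was the highest library and KO replicate 2 lay inside the WT range, with a log2 fold change of 0.08 (SE 0.06). Exons of Gas6 and of Tmem255b on the other strand share 34 bases, and Tmem255b had 34 to 41 counts in a library against at least 2659 for Gas6.

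Pros1 (ENSMUSG00000022912, chromosome 16, 62854307 to 62929346, plus strand), the gene of protein S, stood at 24.9, 23.6 and 30.8 CPM in WT and 28.0 and 25.5 CPM in KO. Its spread within WT (SD 3.87 CPM) exceeded the genotype difference, a log2 fold change of 0.02 (SE 0.12). Per length, Gas6 exceeded Pros1 by 8.52-fold to 11.9-fold in the WT libraries and by 10.8-fold and 10.9-fold in the KO libraries. The levels of both ligand genes and their ratio thus overlapped between the genotypes.

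Megf10 (ENSMUSG00000024593, chromosome 18), which clears synapses and dying cells as a receptor of astrocytes, was at 102.9, 89.1 and 93.9 CPM in WT and 98.0 and 91.6 CPM in KO. Both KO values fell inside the WT range, and the log2 fold change was −0.01 (SE 0.07).

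Gulp1 (ENSMUSG00000056870, chromosome 1, 44551511 to 44796838, plus strand) was the least abundant of the 9 genes, with 121 to 197 counts in a library. It stood at 7.97, 10.1 and 10.3 CPM in WT and 8.03 and 7.56 CPM in KO. WT replicate 1 lay between the KO libraries, so the groups overlapped. The log2 fold change of −0.28 (SE 0.16) was the most negative after that of Mertk and also the least precise of the 9.

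The integrin genes Itgav (ENSMUSG00000027087, chromosome 2, 83724397 to 83806916, plus strand) and Itgb5 (ENSMUSG00000022817, chromosome 16, 33829665 to 33949338, plus strand) overlapped between genotypes as well. Itgav had 130.5, 105.6 and 113.3 CPM in WT and 116.0 and 103.0 CPM in KO, with a log2 fold change of −0.09 (SE 0.09). Its exons share 634 bases with Gm13684 on the other strand, which had 0 counts in every library. Itgb5 had 70.4, 69.6 and 73.9 CPM in WT and 78.8 and 62.7 CPM in KO. The KO libraries flanked the WT libraries for Itgb5, with 1 above and 1 below all of them, and the log2 fold change was −0.01 (SE 0.09).

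Among the 8 genes other than Mertk, 6 had a negative and 2 a positive log2 fold change, with a median of −0.05 and a range from −0.28 to 0.08. All tested genes had a median of 0.00438, and 48.7% were negative. No difference among the 8 exceeded 2 standard errors, and 4 were within 1 standard error of 0.

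**Figure D3:**
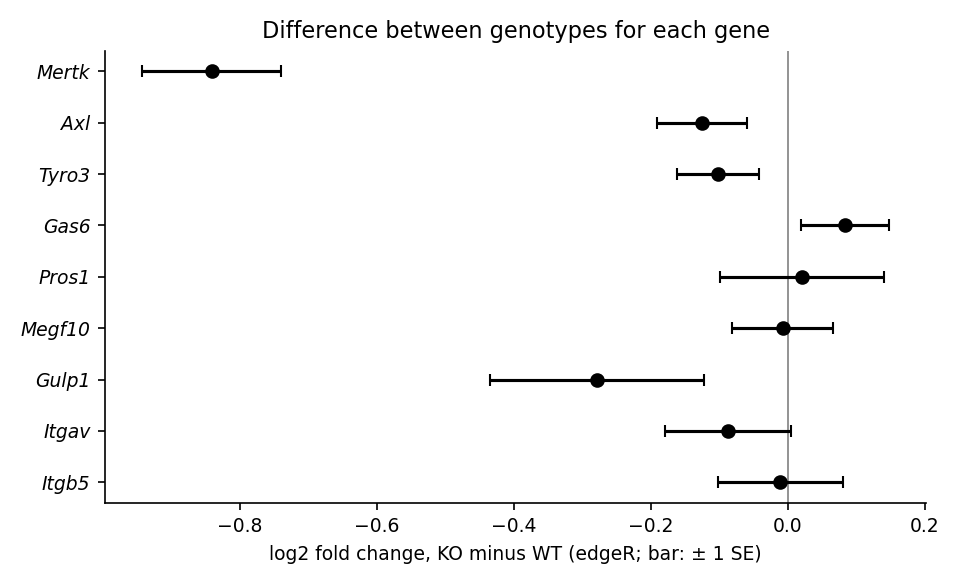
Log2 fold change of KO minus WT for each gene from the edgeR fit (x axis), with bars of 1 standard error on either side. Mertk lies at −0.84 and the other 8 genes between −0.28 and 0.08.

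In order of level per length in WT, Gas6 was followed by Itgb5 (20.1 ± 0.643 CPM per kilobase), Tyro3, Axl, Megf10 (12.4 ± 0.908), Itgav (10.8 ± 1.18), Mertk, Pros1 (6.47 ± 0.946) and Gulp1 (2.52 ± 0.345). Neighbours whose WT libraries overlapped were Tyro3 with Axl, Megf10 with Itgav, and Mertk with Pros1. In KO, where Mertk stood at 4.07 ± 0.450 CPM per kilobase (SD, n = 2) and Pros1 at 6.55 ± 0.437, Mertk moved from the seventh to the eighth place. With the longest transcript as the length, Tyro3 and Itgb5, Megf10 and Itgav, and Mertk and Pros1 changed places in WT.

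Markers of the cells that could supply these transcripts are set beside Mertk, since in bulk tissue fewer cells of a type and less RNA per cell cannot be told apart. Of the 14 microglial markers 10 had a lower and 4 a higher mean in KO; the median difference was −0.07 on the log2 scale, and 0 passed. Their summed level was 551.2 to 623.9 CPM in WT and 534.8 and 588.4 CPM in KO. The microglial receptor gene Cx3cr1 was at 46.5 to 47.7 CPM in WT and 50.0 and 42.7 CPM in KO, and the microglial factor gene Sall1 at 54.8 to 63.8 CPM in WT and 65.6 and 62.6 CPM in KO. P2ry12, a purinergic receptor of resting microglia, stood at −0.23 (SE 0.11) and Tmem119 at −0.32 (SE 0.10), and both KO libraries were below all WT libraries for each.

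The 14 astrocyte markers likewise had 10 lower and 4 higher means in KO, a median of −0.05 and 0 passing, with sums of 8798 to 9752 CPM in WT and 9159 and 9365 CPM in KO. The microglial and astrocyte sums overlapped between the genotypes, but some of their single markers did not. KO libraries lay below all WT libraries for the microglial P2ry12, Tmem119 and Gpr34 and the astrocyte Gjb6, Gja1 and Fgfr3, and above them for the astrocyte Sox9. Over all tested genes, 12% lay below and 12.9% above in this way. The connexin gene Gjb6 had a log2 fold change of −0.35 (SE 0.06) and the transcription factor gene Sox9 one of 0.39 (SE 0.09).

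Border macrophages, which line vessels and meninges and also carry Mertk, were sparse by their markers. All 6 tested markers of 7 had lower means in KO; their median log2 fold change was −0.91, and 0 passed. F13a1 stood at −0.99 (SE 0.30) and Mrc1 at −0.41 (SE 0.33), while Cd209f was nearly absent, at no more than 0.369 CPM. Their sum was 16.4, 36.1 and 34.5 CPM in WT and 18.3 and 16.1 CPM in KO. In WT replicate 1 the sum lay between those of the KO libraries, and Mertk stood at 31.8 CPM there.

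Markers of oligodendrocyte precursors were lower in KO by their sum, at 458.8 to 466.5 CPM in WT and 404.2 and 376.7 CPM in KO. Of the 7 markers 6 were lower and 0 passed. They were uneven, from Gpr17 at −0.62 (SE 0.09; edgeR adjusted p = 0.0603) to Cspg4 at 0.01 (SE 0.14). The sum of the 6 Hox genes that mark position in the cord was higher in KO, at 353.0 and 354.7 CPM against 290.3 to 324.9 CPM in WT. Of the 5 tested, 4 had a higher and 1 a lower mean in KO, and the KO libraries were unlike. Hoxc8 was highest in KO replicate 1, at 115.3 CPM, and Hoxc10 in KO replicate 2, at 33.3 CPM. Within WT, Hoxc10 ran from 5.57 CPM in replicate 2 to 17.7 CPM in replicate 3. Hoxb8 stood at −0.003 (SE 0.10). Sums for blood leukocytes were 2.03 to 3.32 CPM in WT and 2.06 and 2.51 CPM in KO, and those of endothelium 228.0 to 300.4 CPM in WT and 370.0 and 213.0 CPM in KO. The part of these marker differences in the Mertk result was not tested.

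**Figure D4:**
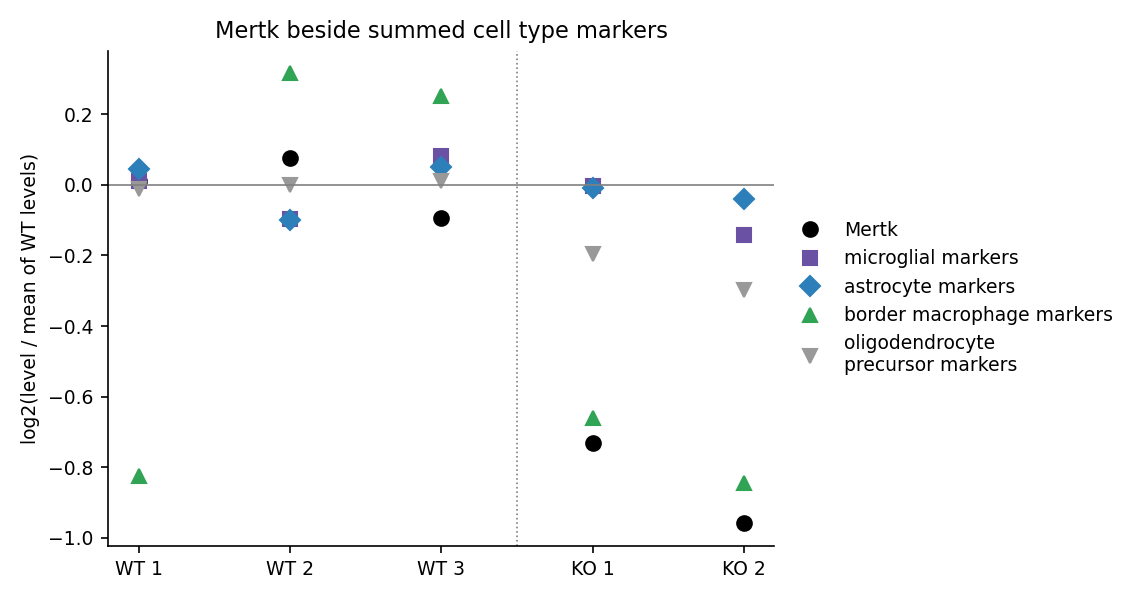
Mertk and the summed markers of 4 cell types in each library, as the log2 of the level over the mean of the WT levels (y axis); libraries left of the dotted line are WT. Mertk is low in both KO libraries, microglial and astrocyte markers stay near 0 in all 5, and border macrophage markers are low in WT replicate 1 as well as in KO. Oligodendrocyte precursor markers are lower in both KO libraries than in every WT library.

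A further 107 genes of the engulfment pathway were examined in 6 lists, of which 98 had enough counts to be tested. In edgeR 0 of the 98 passed over all genes, against 0.0187% of genes in all, and 7 had an unadjusted p under 0.05, as had 1215 of all 16052, while DESeq2 and limma-voom also passed 0. KO means were higher for 45 and lower for 53, and the median difference was −0.01 on the log2 scale. The KO libraries lay below all WT libraries for 16 of the 98 genes and above for 9, where 12% and 12.9% of all tested genes did so. Itgb3 stands in more than 1 of these lists.

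Other phosphatidylserine receptors and bridging proteins included 23 tested genes, 11 higher and 12 lower, with a median of −0.01 and none passing in edgeR. Per length, the most abundant were Anxa5, a phosphatidylserine-binding annexin (−0.11, SE 0.08), and Vtn, the gene of vitronectin, a ligand of alpha-v integrins (−0.31, SE 0.30). Vtn varied widely within WT, from 65.5 CPM in replicate 1 to 168.8 CPM in replicate 3, and without WT replicate 1 it passed in edgeR at −0.63 (SE 0.08). The genes of smallest p were the receptor gene Havcr2 (−0.49, SE 0.26) and Tub (−0.12, SE 0.07), whose product is a bridging ligand of Mertk. Neither passed.

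Of the 3 tested integrin partners of alpha-v, Itgb1 (−0.18, SE 0.08) and Itgb8 (−0.17, SE 0.08) were lower and Itgb3 (0.21, SE 0.20) higher, none passing. Itgb1 had 114.3, 119.8 and 135.2 CPM in WT and 110.0 and 107.7 CPM in KO, so its groups did not overlap.

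Engulfment signalling and cytoskeleton genes numbered 24, 10 higher and 14 lower, with a median of −0.02 and none passing. The genes of smallest p were the kinase gene Src, at 0.20 (SE 0.08), and Pik3r1, a subunit of phosphoinositide 3-kinase, at −0.15 (SE 0.06). Both KO libraries lay above all WT libraries for Src and below them for Pik3r1. The most abundant per length, Nckap1 of the actin-regulating WAVE complex (−0.03, SE 0.06) and the GTPase gene Cdc42 (−0.10, SE 0.07), overlapped between the genotypes.

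Phagosome maturation and degradation genes numbered 19, 7 higher and 12 lower, with a median of −0.02 and none passing. The lysosomal membrane gene Lamp1 (−0.03, SE 0.06) and the protease gene Ctsb (0.02, SE 0.06) were the most abundant per length. The smallest p belonged to Ctsl, another lysosomal protease gene (−0.13, SE 0.06), and to Mon1a, which helps pass phagosomes from Rab5 to Rab7 (0.20, SE 0.10). Both KO libraries lay below all WT libraries for Ctsl and above them for Mon1a.

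Of 13 tested genes of phosphatidylserine exposure and of eat-me and do-not-eat-me signals, 6 were higher and 7 lower, with a median of −0.02 and none passing. Calr, the gene of calreticulin, which is an endoplasmic reticulum chaperone and an eat-me signal at the cell surface, had 298.3, 294.6 and 336.7 CPM in WT and 265.7 and 265.9 CPM in KO (−0.22, SE 0.07; edgeR adjusted p = 0.525). Atp11a, a flippase gene that returns phosphatidylserine to the inner membrane face, had 219.3, 217.3 and 203.8 CPM in WT and 188.5 and 188.9 CPM in KO (−0.18, SE 0.06; edgeR adjusted p = 0.561). For both genes the KO libraries were below all WT libraries. Tmem30a, the partner subunit of flippases, was at −0.09 (SE 0.07).

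Ligand maturation, receptor shedding and known regulators of TAM genes gave 17 tested genes, 11 higher and 6 lower, with a median of 0.05 and none passing. The highest means per length over all 5 libraries were those of Adam10, a membrane protease gene, and Nr1h2, which encodes the liver X receptor beta, a factor that induces Mertk in macrophages. Adam10 had 99.3, 98.1 and 106.9 CPM in WT and 90.3 and 90.0 CPM in KO (−0.17, SE 0.06). Nr1h2 had 50.6, 57.8 and 53.7 CPM in WT and 58.6 and 62.6 CPM in KO (0.17, SE 0.08). The groups of both genes did not overlap, in opposite directions.

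**Figure D5:**
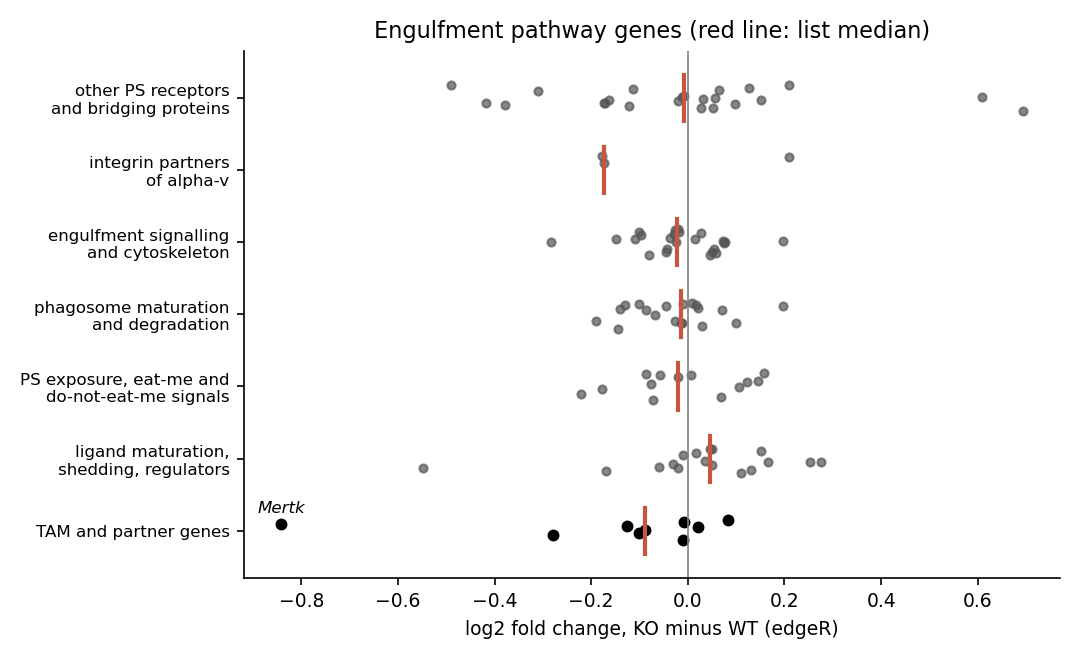
Log2 fold change of KO minus WT (x axis) for each tested gene of 6 engulfment lists (grey points, spread vertically for visibility) and of the 9 TAM and partner genes (black), with list medians as red lines; PS stands for phosphatidylserine. The medians of the 6 lists lie between −0.17 and 0.05, and Mertk lies at −0.84.

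Genes whose profile over the 5 libraries was most like that of Mertk were ranked among 12003 genes with a mean of at least 5 CPM. The measure was the root mean square difference in log2 CPM after each gene was set relative to its WT mean. The nearest were Nmur2 (0.110), a neuromedin U receptor gene, Adipor2 (0.119), an adiponectin receptor gene, Dio2 (0.141), the deiodinase gene that activates thyroid hormone in astrocytes, Nrros (0.151), which serves transforming growth factor beta activation in microglia, and Sh3bp2 (0.190), an adaptor gene of immune cells. For each of them the KO values were both under the lowest WT value, with log2 fold changes from −0.88 for Nrros to −0.55 for Sh3bp2. The ranking is over the same libraries as the genotype comparison, so likeness to Mertk includes its genotype difference. Of the other 8 genes, Gulp1 was nearest at rank 371 (0.395), followed by Axl at rank 1263 (0.458), and Gas6 was farthest at rank 8408 (0.585).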

How the data were processed

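The authors deposited raw counts of reads per gene in 1 table over the 5 libraries, made from polyadenylated RNA with a stranded Illumina kit, per the labels' protocols. The submitters' processing notes name the tools HTSeq, STAR 2.5.2b, Trimmomatic and cutadapt, and GRCm38 as build. Which annotation was counted, and with which strand setting, is not given in the sources used here. Groups and replicate numbers came from the sample titles. Symbols, positions and exon lengths were taken from GENCODE M21 (GRCm38; 55230 of 55471 identifiers matched), and upstream sequences from RefSeq (GRCm38.p6). Levels per length are CPM over the union of a gene's exons.

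Genes were filtered with filterByExpr (minimum count 10, minimum total count 15), scaled by TMM and tested by quasi-likelihood in edgeR 4.0.16 (R 4.3.3), over all 16052 genes, without covariates, with Benjamini-Hochberg adjustment and a threshold of 0.05. The test was checked on simulated data. DESeq2 1.42.0, limma-voom (limma 3.58.1), other scalings, filters and dispersions, a replicate block and the omission of each library were alternatives. Within a group, libraries differed by more than sampling noise (chi-square per degree of freedom 4.23 to 7.98), so no pair agreed within counting noise.

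The members and lists were chosen with earlier results of these data known. The rule for named genes took the 9 members, Lhx1os, genes sharing exon sequence with a member, the 5 genes most like Mertk, and from each list the passing genes, the 2 of smallest p and the 2 of highest level per length by the mean over all 5 libraries. A gene that this rule selects is not reported here. Other genes are named after their values were seen: the markers, Itgb3 and Hoxd10.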

Additional observations from a re-analysis of the deposited data

How the results depend on the processing

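Mertk was lower in KO under all 14 alternatives and was called in 10. Its log2 fold change was −0.84 with limma-voom, where it missed the threshold (adjusted p = 0.0814; 4.05e-06 to 0.229 over the alternatives), and ran from −0.96 to −0.73 with 1 library left out. The members called were 1, against 0 with limma-voom and 0 to 1 with a library left out. Over all genes edgeR called 3, which became 6 with DESeq2 size factors, 12 with robust dispersion, 96 without a filter on low counts, 42 in DESeq2 and 1 in limma-voom. With a library left out the count ran from 0 to 58: it was 58, 1 and 10 without WT replicates 1, 2 and 3, and 0 and 3 without KO replicates 1 and 2. The 0 listed pathway genes became 0 to 1 with a library left out, and the gene was Vtn.

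With the replicate number as a block edgeR called 25 genes, Mertk was at −0.89, and 1 member and 0 listed genes were called. Deviations of same-numbered libraries from their group means had correlations of 0.0579 and 0.00203. With so few KO libraries their deviations are mirror images, so this check cannot decide whether the numbers pair the samples.

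Axl, Tyro3 and Gulp1 stayed lower and Gas6 higher in KO under all 14 alternatives, whereas Pros1, Megf10, Itgav and Itgb5 changed sign in 3, 2, 1 and 3 of them. Some of the constant signs belonged to small values. Without KO replicate 1 Tyro3 was at −0.06 and Gas6 at 0.02, and without KO replicate 2 Axl was at −0.06. Itgb5 ranged from −0.19 without KO replicate 1 to 0.14 without KO replicate 2. With 1 KO library left, that library is assumed to vary like the WT libraries. The cause of these changes was not tested.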

Other observations

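WT replicate 1 stood apart from the other WT libraries in genes of vessel walls and meninges. The summed markers of meningeal fibroblasts were 210.5 CPM there, 409.0 and 481.0 CPM in WT replicates 2 and 3, and 256.4 and 269.5 CPM in KO. Those of pericytes were 233.0, 355.0 and 384.2 CPM in WT and 322.1 and 235.3 CPM in KO. Vtn is among these pericyte markers and made up 65.5, 153.6 and 168.8 CPM of the WT sums. Axl, Tyro3 and Mertk had WT replicate 1 values between those of the other WT libraries.

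The KO libraries ordered Axl and Tyro3 in opposite ways, with Axl higher in KO replicate 1 and Tyro3 higher in KO replicate 2. KO replicate 2 was also the library with the most Hoxc10, at 33.3 CPM against 4.78 CPM in KO replicate 1, and the least Itgb5. Hoxc10 was uneven in WT too, at 6.01, 5.57 and 17.7 CPM in replicates 1, 2 and 3.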
